A study of Homo sapiens with 4 samples.

Results

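The proximal part of B cell receptor signaling was examined at the level of mRNA in NUDUL1 cells, an established human line of diffuse large B cell lymphoma. It was represented by 9 genes chosen by their function: the receptor chains CD79A and CD79B, the kinases LYN, SYK and BTK, the adaptors BLNK, PIK3AP1 and LAT2, and the phospholipase PLCG2. All 9 were found among the 25066 genes with deposited values, and all 9 were high enough to be tested. The cells came from a single-cell clone that carried Cas9 under doxycycline control and had been transduced with Tbxa2r, the receptor for thromboxane A2 that couples to Gα13. One genotype expressed a control sgRNA and the other a sgRNA against GNA13, which encodes Gα13, with 1 sgRNA per genotype. Both genotypes received 10 nM U46619, a stable mimetic of thromboxane A2, for 24 h, and each gave 2 libraries. No untreated cells were part of the series, so every value below compares genotypes under U46619. The labels call the treatment duplicate and do not say whether the cultures were separate, so the p values measure the spread between these libraries, which may be technical.

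On a B cell the surface immunoglobulin sits in a complex with CD79A and CD79B, whose cytoplasmic tails carry the tyrosines that start the signal. Antigen binding lets LYN phosphorylate these tyrosines, SYK docks on them, and SYK then phosphorylates BLNK, the scaffold on which BTK activates PLCG2 to produce calcium and diacylglycerol signals. PIK3AP1, also called BCAP, links the receptor to phosphoinositide 3-kinase, and LAT2, also called NTAL or LAB, is a membrane adaptor that binds GRB2. Activity of this pathway supports the survival of many diffuse large B cell lymphomas.

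The libraries held between 29209544 and 31537955 mapped reads. The deposited log2 values of low genes stepped in whole reads in every library, so the reads behind each value could be recovered. GNA13 itself had log2 levels of 12.46 and 12.45 under the control label and 13.10 and 13.11 under the GNA13-deficient label (difference 0.65, SE 0.05, limma adjusted p = 0.00214). Its mRNA was higher, not lower, where the label names a deficiency, and an mRNA level does not measure the edit or the protein, so every direction given here rests on the labels. Of the B cell markers, 7 of 7 lay above 3 reads in every library, with MS4A1 (CD20) highest. They summed to 36541 and 38110 normalized reads in control libraries and 35672 and 36139 in the others. Of these 7 markers 2 rose and 2 fell (57.1% called), and MS4A1 fell by 0.57 (limma adjusted p = 0.00477). Of the germinal center markers, 4 of 7 lay above 3 reads in every library, with MME (CD10) highest. SERPINA9 had 0 reads throughout, and RGS13 and MEF2B were at or below 3 reads in at least 1 library. The germinal center markers summed to 19639 and 18820 normalized reads in control libraries and 17687 and 17211 in the others, and 2 of the 6 tested fell, BCL6 (-2.49, limma adjusted p = 0.00085) and RGS13 (-2.78, limma adjusted p = 0.0271). Plasma cell markers lay above 3 reads in 6 of 6 cases, with IRF4 highest, and summed to 20495 and 20278 against 16394 and 16154. Of these 3 fell, PRDM1 (-1.85, limma adjusted p = 0.00224), TNFRSF17 (-0.59, limma adjusted p = 0.017) and IRF4 (-0.32, limma adjusted p = 0.0309). Summed normalized reads ranged from 7.5 to 14.4 for T and NK cell markers, with NKG7 highest, and from 2.0 to 3.1 for erythroid markers, with ALAS2 highest. Of the 3 T and NK cell markers tested 1 was called, and it was lower (limma adjusted p = 0.01). It had 5 and 5 reads in control libraries and 0 and 0 in the others. For myeloid markers the sums were 136 and 138 against 68.8 and 53.8. CD68 had the highest mean log2 level of these, and LYZ, with 83 and 83 reads against 11 and 17, fell by 2.53 (limma adjusted p = 0.00759). Epithelial and stromal markers summed to 160 and 162 against 118 and 130. EPCAM had the highest mean log2 level, although PECAM1 was above it in both control libraries. Against the direction of the sum, EPCAM rose by 1.23 (limma adjusted p = 0.0185), from 37 and 46 reads to 88 and 97. PECAM1 went from 112 and 115 reads to 11 and 16. The part of these markers in the differences below was not tested. The cells were of 1 clonal line, and these bulk values cannot separate fewer cells in a state from less RNA per cell.

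Of the 9 genes, 5 changed between genotypes by limma at an adjusted p under 0.05. LAT2 rose 4.46-fold, BTK 1.28-fold and PIK3AP1 1.20-fold in libraries with the GNA13-deficient label, whereas PLCG2 fell by 0.30 and BLNK by 0.26 on the log2 scale. The falls of PLCG2 and BLNK were not called after centring each library on its median, and the rises of BTK and PIK3AP1 were not called after quantile normalization. Without the filter on low values limma called 2 of the 9, and without the variance trend 1, LAT2. CD79A, CD79B, LYN and SYK did not pass the test. Among all 16945 genes tested 29.7% were called, 13.1% higher and 16.6% lower, so calls were common in this comparison. With only the 8473 genes at or above the median level tested, limma called 4083, among them 5 of the 9. Calls were more common in that fit, which pooled the spread across genes anew. The share of these genes called in the main fit was not counted. The levels of the genotypes did not overlap for 7 of the 9 genes, against 65.3% of all genes tested. The median difference of the 9 genes was 0.015 and that of all genes was -0.024. Without LAT2 the differences spanned -0.30 to 0.36, against quartiles of -0.44 and 0.27 over all genes. An exact two-sided permutation test of a single gene cannot go below p = 0.333 with 2 libraries against 2, so the test relies on limma's pooling of the spread across genes. With any 1 library left out, limma called 0 of the 16945 genes at an adjusted p under 0.05 and between 5257 and 5600 at an unadjusted p under 0.05, among them 3 to 5 of the 9.

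**Figure D1:**
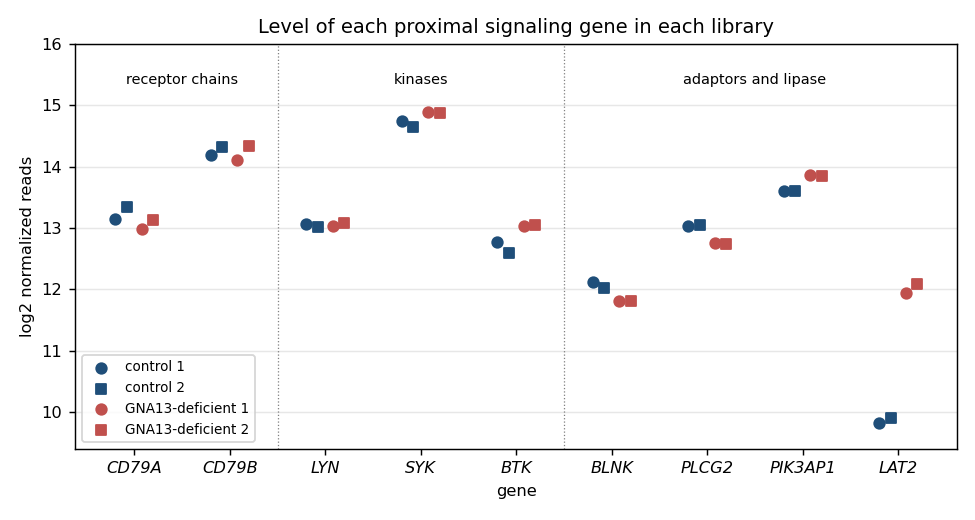
Level of each of the 9 proximal signaling genes in each library, as deposited log2 normalized reads; circles and squares are replicates 1 and 2 of libraries labelled control (blue) and GNA13-deficient (red). LAT2 stands at 9.83 and 9.89 against 11.95 and 12.09, and the other 8 genes differ by 0.36 or less. The values are not corrected for gene length, so heights compare libraries and not genes.

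**Figure D2:**
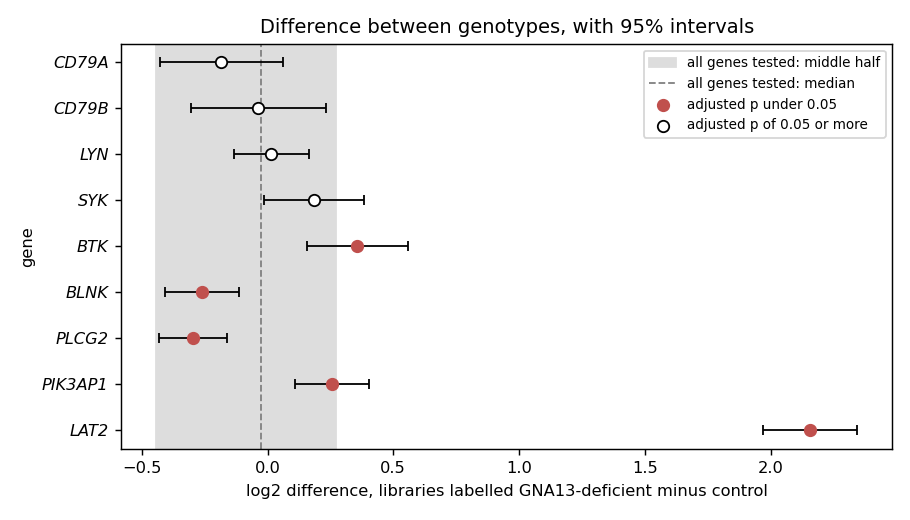
Log2 difference of each of the 9 genes, libraries labelled GNA13-deficient minus control, with its 95% confidence interval from limma. The interval lies above 0 for LAT2, BTK and PIK3AP1, below 0 for PLCG2 and BLNK, and spans 0 for SYK, LYN, CD79B and CD79A.

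The receptor chains were the most abundant transcripts of the group per unit length. CD79B, the partner that forms the signaling dimer with CD79A, gave 506 and 530 RPKM (reads per kilobase of transcript, scaled to the mapped reads of the library) in control libraries and 458 and 519 RPKM in those with the GNA13-deficient label. CD79A gave 277 and 304 RPKM against 239 and 256 RPKM. The ratio of CD79A to CD79B normalized reads, which is not per length and so compares libraries only, was 0.48 and 0.51 in control libraries and 0.46 and 0.43 in the others.

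On the log2 scale CD79A (chr19:42381349-42385439, plus strand, GRCh37) had levels of 13.14 and 13.34 in control libraries and 12.99 and 13.13 in libraries with the GNA13-deficient label. Both controls were higher, but the gap between genotypes was smaller than the gap between replicates. The difference was -0.18 (SE 0.09, 95% confidence interval -0.43 to 0.06, limma adjusted p = 0.215). After quantile normalization it was -0.32 and called (limma adjusted p = 0.0305), and after median centring 0.025. CD79B (chr17:62006098-62009696, minus strand) had levels of 14.19 and 14.32 against 14.11 and 14.33, which overlapped. Its difference was -0.04 (SE 0.10, 95% confidence interval -0.31 to 0.23, limma adjusted p = 0.833). Another gene on the same strand shares 288 of its exon bases in GENCODE v44. Whether the counting used that gene is not known, so a part of the reads of CD79B is uncertain. The interval of CD79B leaves room for a change of 0.31 down or 0.23 up. The immunoglobulin heavy chain and the kappa and lambda constant genes that complete the receptor are not analysed here.

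Of the 3 kinases, BTK rose and LYN and SYK did not pass the test. LYN (chr8:56792394-56926728, plus strand), the Src family kinase that phosphorylates the CD79 tails, had log2 levels of 13.07 and 13.01 in control libraries and 13.03 and 13.08 in libraries with the GNA13-deficient label. These levels overlapped, and the difference of 0.015 (SE 0.06, limma adjusted p = 0.883) had a 95% confidence interval of -0.13 to 0.16. Its transcript was at 45.3 to 49.2 RPKM over the 4 libraries.

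SYK (chr9:93564069-93660831, plus strand), which docks on the phosphorylated tails and passes the signal on, had the most reads of the 9 genes, between 26075 and 29694 per library. Its log2 levels were 14.75 and 14.65 in control libraries and 14.90 and 14.87 in the others, so the genotypes did not overlap. The difference of 0.18 (SE 0.08, 95% confidence interval -0.01 to 0.38) was not called (limma adjusted p = 0.141). Centring on the median raised it to 0.39 (limma adjusted p = 0.0237).

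BTK (chrX:100604326-100645784, minus strand), the TEC family kinase that activates PLCG2, had log2 levels of 12.78 and 12.59 in control libraries and 13.03 and 13.05 in libraries with the GNA13-deficient label. Both of the latter were higher than both controls, with an SD of 0.13 between controls and 0.014 between the others (n = 2 each). The rise was 0.36 (SE 0.08, 95% confidence interval 0.16 to 0.56, limma adjusted p = 0.0276). It was 0.24 and not called after quantile normalization (limma adjusted p = 0.0687), and 51.1% of all genes tested had a smaller absolute difference.

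The 4 adaptor and lipase genes were all called, 2 in each direction, where 29.7% of all genes tested were called. Without the variance trend only LAT2 of these kept its call. Promoter sequence is shown for called genes, to set what lies before their starts beside the direction of change. An entry was found for 6 of the 9 genes in RefSeq (GRCh38.p14), with 9 windows in all. CD79B, LYN and LAT2 had none and are not part of the counts of letters below. The windows of the called genes BTK, BLNK, PLCG2 and PIK3AP1 are printed 5′ to 3′ on the gene's strand, 250 bases each, ending at the base before the annotated start. Capitals mark AGGAAG or its reverse complement CTTCCT, the core letters recognised by PU.1 and other ETS family factors, which act widely in B cells. The windows are chrX:101386192-101386441 and chrX:101390797-101391046 for BTK, chr10:96271570-96271819 for BLNK and chr10:96720515-96720764 for PIK3AP1, on the minus strand, and chr16:81738791-81739040 for PLCG2 on the plus strand.
BTK, window 1: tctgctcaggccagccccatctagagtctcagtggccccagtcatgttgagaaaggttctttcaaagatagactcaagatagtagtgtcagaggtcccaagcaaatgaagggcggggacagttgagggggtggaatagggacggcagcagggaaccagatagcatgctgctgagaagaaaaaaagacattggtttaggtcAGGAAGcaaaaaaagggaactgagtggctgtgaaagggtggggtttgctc
BTK, window 2: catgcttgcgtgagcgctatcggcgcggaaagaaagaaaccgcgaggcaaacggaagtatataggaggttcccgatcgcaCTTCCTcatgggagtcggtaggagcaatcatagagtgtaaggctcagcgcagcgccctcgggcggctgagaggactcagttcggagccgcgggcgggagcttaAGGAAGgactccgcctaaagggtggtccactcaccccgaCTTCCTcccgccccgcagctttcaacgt
BLNK: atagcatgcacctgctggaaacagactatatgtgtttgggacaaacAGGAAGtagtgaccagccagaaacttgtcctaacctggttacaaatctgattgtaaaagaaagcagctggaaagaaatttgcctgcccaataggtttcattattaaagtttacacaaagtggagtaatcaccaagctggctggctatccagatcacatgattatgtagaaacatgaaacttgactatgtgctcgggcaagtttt
PLCG2: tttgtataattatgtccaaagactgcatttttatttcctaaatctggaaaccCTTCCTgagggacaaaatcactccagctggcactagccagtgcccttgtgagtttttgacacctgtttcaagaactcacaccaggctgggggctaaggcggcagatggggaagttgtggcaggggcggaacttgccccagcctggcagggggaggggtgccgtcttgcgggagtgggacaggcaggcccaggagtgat
PIK3AP1: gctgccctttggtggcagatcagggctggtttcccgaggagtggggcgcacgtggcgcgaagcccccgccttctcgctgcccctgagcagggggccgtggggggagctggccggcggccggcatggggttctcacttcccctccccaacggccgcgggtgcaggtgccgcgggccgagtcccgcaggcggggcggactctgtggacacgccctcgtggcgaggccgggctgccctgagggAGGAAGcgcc

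The letters AGGAAG, searched on both strands, stood in 7 of the 9 windows and in at least 1 window of each of the 6 genes, which besides those printed were CD79A and SYK. They stood in 28.7% of all 35116 windows of the same length, and 32.9% of the 27305 genes had them in a window. They were present in genes that rose, such as BTK and PIK3AP1, and in genes that fell, such as BLNK and PLCG2, so they did not separate the directions. On both strands, the octamer ATGCAAAT was in 0 of the 9 windows and in 1.63% of all windows, and CACCTG, a core of E-box sites that does not overlap AGGAAG, was in 5 of the 9 and in 17.5% of all windows. These matches describe letters and not bound sites, and no binding was measured.

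BLNK (chr10:97948927-98031344, minus strand), the scaffold that brings BTK and PLCG2 together, had log2 levels of 12.11 and 12.02 in control libraries and 11.80 and 11.81 in libraries with the GNA13-deficient label. Both controls were higher. The gene fell by 0.26 (SE 0.06, 95% confidence interval -0.41 to -0.11, limma adjusted p = 0.028), from 34.3 and 30.8 to 26.6 and 25.8 RPKM. The fall was -0.05 and not called after median centring (limma adjusted p = 0.535). Its exons share 854 bases with the pseudogene NPM1P25 on the same strand and 117 with ZNF518A on the opposite strand.

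PLCG2 (chr16:81812884-81996290, plus strand), the enzyme that cleaves phosphatidylinositol bisphosphate downstream of the receptor, had log2 levels of 13.04 and 13.05 in control libraries and 12.76 and 12.73 in the others. Both controls were higher, and the SD between replicates was 0.009 and 0.016 (n = 2 each). PLCG2 fell by 0.30 (SE 0.05, 95% confidence interval -0.43 to -0.16, limma adjusted p = 0.0149), from 32.6 and 31.5 to 25.8 and 24.6 RPKM. After median centring it was at -0.09 and not called (limma adjusted p = 0.306). A further gene on the same strand shares 4141 of its exon bases in GENCODE v44. Whether the counting used that gene is not known, so the reads of PLCG2 are uncertain there.

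PIK3AP1 (chr10:98353072-98480271, minus strand), the adaptor to phosphoinositide 3-kinase, had log2 levels of 13.61 and 13.60 in control libraries and 13.87 and 13.85 in libraries with the GNA13-deficient label. Both of the latter were higher, and the SD between replicates was 0.005 and 0.014 (n = 2 each). The rise was 0.26 (SE 0.06, 95% confidence interval 0.11 to 0.41, limma adjusted p = 0.0286). After quantile normalization it was 0.11 and not called (limma adjusted p = 0.239).

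LAT2 (chr7:73613982-73644164, plus strand) had by far the largest difference of the 9 genes. Its log2 levels were 9.83 and 9.89 in control libraries and 11.95 and 12.09 in libraries with the GNA13-deficient label, from 893 and 967 reads against 3843 and 4062. Both of the latter libraries were more than 2 log2 units above both controls. The rise was 2.16 (SE 0.07, 95% confidence interval 1.97 to 2.34, limma adjusted p = 0.00068), and 94.8% of the genes tested had a smaller absolute difference. It was called in all 10 alternatives that kept the 4 libraries, and over all 14 alternatives its difference stayed between 2.08 and 2.37. None of its exon bases is shared with another annotated gene.

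The rise of LAT2 moved its place among the 9 genes. In control libraries the order per unit length ran from CD79B and CD79A through SYK (186 and 166 RPKM), BTK (91.6 and 77.3 RPKM), PIK3AP1 (87.4 and 83.3 RPKM), LYN, BLNK and PLCG2 down to LAT2 at 15.7 and 15.8 RPKM. The values of BTK and PIK3AP1 overlapped there, as did those of BLNK and PLCG2. In libraries with the GNA13-deficient label LAT2 stood at 65.7 and 70.5 RPKM, above LYN (46.0 and 46.2 RPKM), BLNK and PLCG2. Its share of the reads of the 9 genes was 0.94% and 0.98% in control libraries and 3.85% and 4.11% in the others. The 9 genes together took 0.327% and 0.312% of mapped reads in control libraries and 0.331% and 0.333% in the others, so their sum moved little while its parts shifted.

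Several of the 9 genes have a relative, which for some acts in T cells or at other receptors and for others in B cells. The levels of 7 such relatives were set beside them. Of these relatives 5 fell, among them the B cell genes BANK1 and BLK, where 16.6% of all genes tested were called lower. The pairing was made after values had been seen, and of the relatives ZAP70, LCP2 and PLCG1 also met the rule for naming genes. ZAP70, the T cell counterpart of SYK, had log2 levels of 10.14 and 10.14 in control libraries and 7.41 and 7.43 in libraries with the GNA13-deficient label. It fell by 2.72 (SE 0.08, limma adjusted p = 0.000652), from 15.7 and 15.0 to 2.27 and 2.23 RPKM, while SYK was at 166 to 198 RPKM throughout. SYK supplied 96.06% and 95.80% of the normalized reads of the pair, not per length, in control libraries and 99.44% and 99.43% in the others. Of the 9 T and NK cell markers found, 7 were at or below 3 reads in every library and 4 of them had 0 reads throughout.

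LCP2 (SLP-76), the counterpart of BLNK in T cells, had log2 levels of 6.63 and 7.24 against 3.62 and 3.28, from 97 and 154 reads against 12 and 9. It fell by 3.49 (SE 0.34, limma adjusted p = 0.00341), and its level was at most 1.15 RPKM, against 25.8 RPKM or more for BLNK. PLCG1, the isoform that serves the T cell receptor and growth factor receptors, had log2 levels of 11.20 and 11.18 against 10.02 and 9.74. It fell by 1.31 (SE 0.10, limma adjusted p = 0.00217), from 11.1 and 10.5 to 4.72 and 3.79 RPKM. PLCG2 supplied 78.15% and 78.52% of the normalized reads of both isoforms in control libraries and 86.97% and 88.82% in the others.

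BANK1, a B cell scaffold related to PIK3AP1, had log2 levels of 10.12 and 10.01 against 8.89 and 8.96 and fell by 1.13 (SE 0.08, limma adjusted p = 0.00167). BLK, the B cell Src kinase related to LYN, had log2 levels of 11.73 and 11.72 against 11.25 and 11.35 and fell by 0.43 (SE 0.06, limma adjusted p = 0.00736). In control libraries BLK was at 51.7 and 49.1 RPKM, slightly above LYN at 49.2 and 45.3 RPKM with touching ranges, and in the others BLK was at 35.5 and 36.8 RPKM and below LYN. LAT, the T cell relative of LAT2, gave 15 and 8 reads against 12 and 11 and was at most 0.307 RPKM, and 1662 of its exon bases are shared with another gene on the same strand. TEC, the family member set beside BTK, had log2 levels of 6.70 and 6.58 against 5.77 and 6.39, a difference of -0.56 that was not called (SE 0.27, limma adjusted p = 0.196). The differences between a gene and its relative were not tested.

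**Figure D3:**
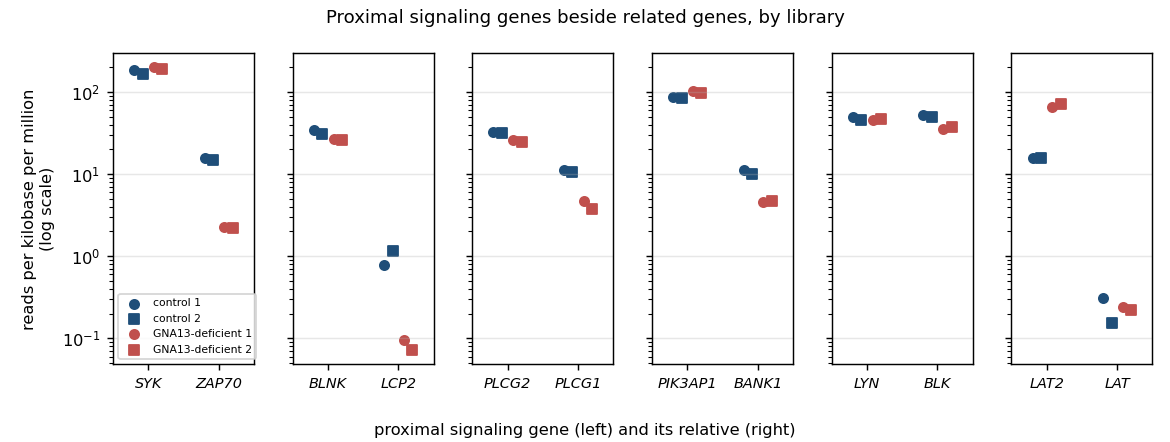
Level of 6 of the proximal signaling genes and of the relative set beside each, per library, in RPKM on a log axis; circles and squares are replicates 1 and 2, blue control and red GNA13-deficient by label. ZAP70, LCP2, PLCG1, BANK1 and BLK are lower in both red libraries, whereas LAT2 is higher and LAT stays below 0.31.

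The other genes of the pathway were taken from a list of 119, of which 104 were found and 100 tested. Of these, 13 rose and 34 fell (47.0% called, against 29.7% of all genes tested, 13.1% higher and 16.6% lower), with a median difference of -0.10. Median centring turned this split to 28 higher and 26 lower. With only the 8473 genes at or above the median level tested, limma called 4083 of them. Of the other pathway genes that fit called 13 higher and 27 lower. It pooled the spread across genes anew, with 10.53 median total degrees of freedom against 4.89. The 29.7% may understate how common calls were among well expressed genes, whose share called in the main fit was not counted. CD81, a tetraspanin of the B cell surface, rose by 0.28 (SE 0.07, limma adjusted p = 0.047), whereas CR2 (CD21), the complement receptor, fell by 1.75 (SE 0.46, limma adjusted p = 0.0461) from 34 and 36 reads to 7 and 14. CD81 had log2 levels of 14.08 and 14.19 against 14.39 and 14.43, with both libraries of the GNA13-deficient label above both controls. Among the alternatives that kept all libraries, CD81 lost its call in 3 of 10 and CR2 in 4 of 9.

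Of 11 other Src and TEC family kinases tested, a list that also held ZAP70 of the SYK family, 0 rose and 6 fell (54.5% called). Their median difference was -0.61. That median is the value of a kinase with 1 to 7 reads per library that was not called (limma adjusted p = 0.693). Besides ZAP70, the rule named LCK, the Src kinase of T cells, which fell by 1.53 (SE 0.24, limma adjusted p = 0.012) from 85 and 103 reads to 29 and 33. Of 17 other adaptors 2 rose and 8 fell (58.8% called). CLNK, an adaptor related to BLNK and named after its values were seen, had 16 and 11 reads against 1 and 0, under the read minimum of the naming rule. The rule named LCP2 and SH3BP2, an adaptor that binds SYK, which fell by 3.27 (SE 0.33, limma adjusted p = 0.00357) from 249 and 221 reads to 18 and 30. Of 8 exchange factors 1 rose and 2 fell (37.5% called). The latter were RASGRP3 (-0.77, SE 0.13, limma adjusted p = 0.0125) and RASGRP2 (-0.54, SE 0.06, limma adjusted p = 0.00446), which load Ras and Rap GTPases.

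In the calcium and NFAT arm 1 of 18 genes rose and 8 fell (9 called), with a median of -0.29. PLCG1 and NFATC1, a transcription factor that calcium signals bring to the nucleus, had the largest falls that met the rule, and NFATC1 fell by 1.16 (SE 0.10, limma adjusted p = 0.0024). PRKCQ, the T cell isoform of protein kinase C, fell by 2.57 (SE 0.31, limma adjusted p = 0.00579) from 59 and 71 reads to 12 and 9, and the ubiquitin ligase TRAF6 by 0.51 (SE 0.07, limma adjusted p = 0.00748). The lipid kinase arm, to which PIK3AP1 connects, had 2 of 7 genes higher and 0 lower, 28.6% called and so near the 29.7% of all genes. PIK3CD, the leukocyte catalytic subunit, rose by 0.62 (SE 0.05, limma adjusted p = 0.00254), and the regulatory subunit PIK3R3 by 0.33 (SE 0.07, limma adjusted p = 0.0222).

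Of 22 negative regulators 2 rose and 6 fell, with a median of -0.05, and the 36.4% called was near the 29.7% of all genes. PECAM1, an adhesion receptor with inhibitory motifs, fell by 3.03 (SE 0.32, limma adjusted p = 0.00393) from 112 and 115 reads to 11 and 16, and CEACAM1, which has motifs of the same kind, fell by 1.03 (SE 0.24, limma adjusted p = 0.0322). PECAM1 also stood in the list of stromal markers. Among the 78 genes tested that transmit the signal, negative regulators left out, 11 rose and 28 fell.

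**Figure D4:**
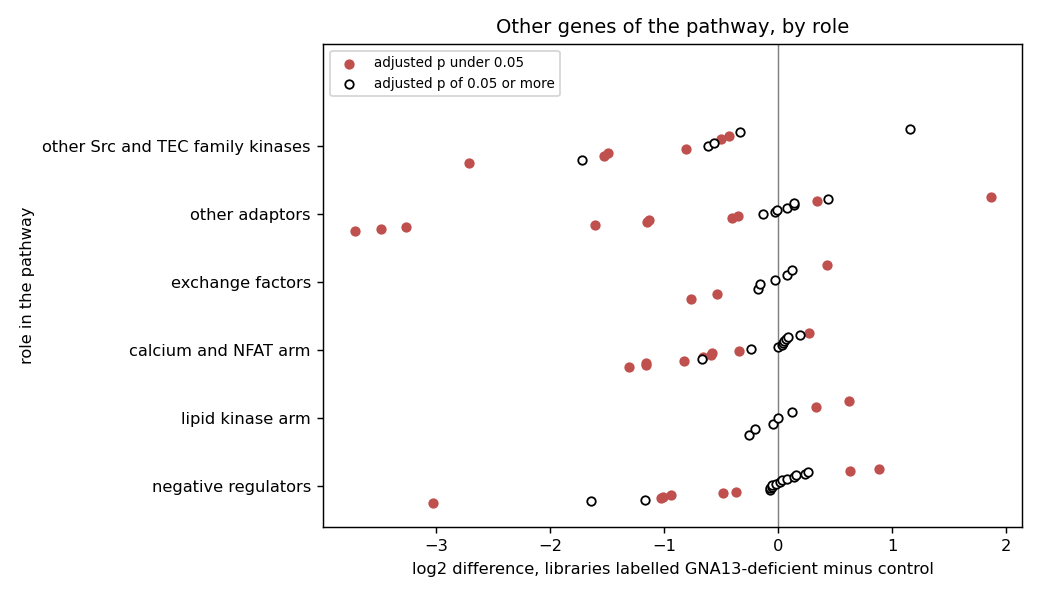
Log2 difference of other pathway genes tested, libraries labelled GNA13-deficient minus control, for 6 of the roles; filled points passed limma at an adjusted p under 0.05 and open points did not. Among the other Src and TEC family kinases, a row that includes ZAP70 of the SYK family, 6 filled points lie below 0 and none above.

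**Figure D5:**
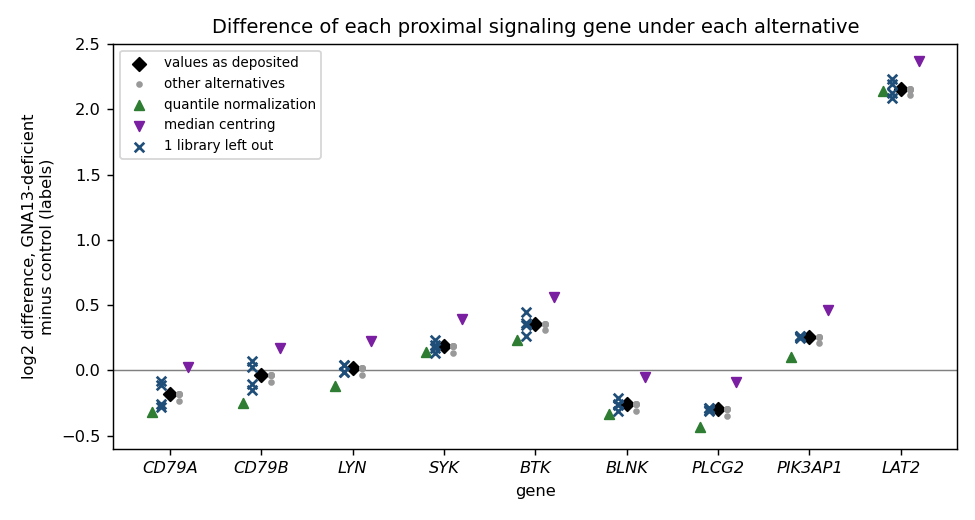
Log2 difference of each of the 9 genes under the main setting and the 14 alternatives, libraries labelled GNA13-deficient minus control. LAT2 stays between 2.08 and 2.37, while the values of LYN, CD79A and CD79B lie on both sides of 0.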

How the data were processed

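RNA sequencing of 4 libraries of NUDUL1 cells was used, 2 per genotype, grouped by the sample titles. Alignment by the authors was to hg19, with STAR. They deposited normalized reads per gene as log2 values, with a row of mapped totals that was used here only for depth. The submitters' processing notes name HTSeq. The method of normalization, the annotation and tool versions are not given in the sources used here, nor is the strand setting of the counting.

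The deposited log2 values were compared as they stand with limma 3.58.1 in R 4.3.3 (lmFit, eBayes with a mean-variance trend, genotype as the only term) on the 16945 genes above 0 in at least 2 libraries. The Benjamini-Hochberg adjustment ran over these genes, and the threshold was 0.05. Whole reads were recovered from the step of 1 read in each library: 100.0% of values under log2 8 came out whole within 0.0011, and the recovered totals were 99.99% to 100.01% of the deposited ones. They gave the read numbers, the RPKM over the canonical transcript (GENCODE v44 lifted to GRCh37, the build of hg19) and the floor of 3 reads. At totals of 29209544 to 31537955 reads the counting error of the 9 genes was small in itself, but for some, such as PLCG2 and PIK3AP1, it was as large as the spread between replicates. On simulated libraries the fit recovered most changes of a log2 unit, few of the smaller ones, which were still larger than the changes of BTK, BLNK, PLCG2 and PIK3AP1, and made no false call. That simulation changed a far smaller share of genes than was called in the data, with 1 fixed spread. Its rates of recovery and of false calls therefore do not carry over to the calls given here. The pass mark of that simulation was lowered, and the minimum of simulated reads raised, after its first runs had missed it.

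The 9 genes, the pathway list and the marker lists were chosen with earlier results of these data known. Named are the 9 genes, GNA13, the co-receptor genes, the highest marker of each list and, per role, the 2 genes with the largest absolute difference among those called without overlap and with at least 50 reads in every library of a genotype. BANK1, BLK, LAT, TEC, CLNK, SERPINA9, RGS13, MEF2B, BCL6, PRDM1, TNFRSF17 and LYZ, and the genes under other observations, were chosen after their values were seen. Results for part of the genes and roles under that naming rule are not given here. Alternatives were a filter at the median, no filter, pseudocounts of 1 and 10, quantile normalization, median centring, the replicate number as a block, no variance trend, a robust prior, voom weights on recovered reads, and leaving out each library. Scripts used Python 3.11.15.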

Additional observations from a re-analysis of the deposited data

How the results depend on the processing

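LAT2 kept its direction under all 14 alternatives and its call in the 10 that kept all libraries; BTK, BLNK and PIK3AP1 kept theirs in 7 of 10 and PLCG2 in 8. All genes called numbered 5037, against 1999 without a filter and 2718 without a variance trend. Of the 9 genes, 3 were called higher and 2 lower; these became 1 and 1 without a filter, 1 and 0 without a trend, 1 and 3 after quantile normalization and 4 and 0 after median centring. The other pathway genes, 13 higher and 34 lower, became 5 and 14 without a filter, 4 and 19 without a trend and 28 and 26 after centring. Centring moved the median of all genes from -0.02 to 0.18, that of the 9 genes from 0.02 to 0.22, and 69.1% of its calls were higher, against 2218 of 5037. The median of the 9 was -0.118 after quantile normalization and -0.0342 with voom weights. LYN, the median gene, turned to the same values there, and CD79A to 0.025 and CD79B to 0.17 after centring; none of these was called, and the causes were not tested. With 1 library left out, limma called 0 of all genes, of the 9 genes and of the other pathway genes in every fit (smallest adjusted p 0.0708 to 0.079), in fits with 2.28 to 2.44 total degrees of freedom against 4.89, where the lone library is assumed to vary like the other genotype; the median of the 9 ran from -0.010 to 0.076. CD79B ran from -0.150 to 0.076 over these fits, positive (0.028) when control replicate 2 was left out and highest when GNA13-deficient replicate 1 was. LYN ran from -0.014 to 0.044 and was below 0 without either replicate 2. Among the other named genes with a test, those that reversed were never called: CD68 (0.457 after quantile normalization, 0.197 after centring, -0.245 to 0.222 with 1 library left out), MME (0.186 after centring, -0.059 to 0.015) and LAT (-0.339 to 0.616 with 1 left out). With all libraries these genes stayed on their side of the threshold in 352 cases and lost a call in 36, among them IRF4 and TNFRSF17 after centring.

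With the replicate block limma called 6616 genes, among them 4 of the 9 higher and 3 lower, since SYK and CD79A were added, and 17 and 39 of the other pathway genes. Same-numbered libraries deviated together (r = 0.45 across 8473 genes, which are not independent), but 2 pairs are too few to settle a pairing and no label states one.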

Other observations

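The components of the surrogate light chain, which pairs with the mu heavy chain in the pre-B cell receptor that signals through CD79A and CD79B, were higher under the GNA13-deficient label. IGLL1, the only gene found from the list of immunoglobulin constant regions, had log2 levels of 12.45 and 12.64 in control libraries and 14.34 and 14.55 in the others, a rise of 1.90 (SE 0.11, limma adjusted p = 0.00125). Its sequence is near that of the lambda constant genes, so its reads are uncertain. VPREB1, its partner, rose by 0.88 (SE 0.09, limma adjusted p = 0.00342), from 10.38 and 10.54 to 11.27 and 11.42. VPREB3, a related chaperone that also stood in the B cell marker list, rose by 1.15 (SE 0.08, limma adjusted p = 0.00175), from 10.47 and 10.66 to 11.68 and 11.75. VPREB1 and VPREB3 were chosen after their values were seen.

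Genes next to LAT2 on chromosome 7 also differed, and they too were chosen after their values were seen. Of 4 neighbours tested within 100 kb, 3 were called, against 29.7% of all genes. Others of the 9 genes had called neighbours too, such as PLCG2 with 2 of 2 and CD79B with 3 of 6. CLIP2 rose by 1.66 (SE 0.14, limma adjusted p = 0.00254) and RFC2 by 0.71 (SE 0.09, limma adjusted p = 0.00556), whereas LIMK1 fell by 0.26 (SE 0.06, limma adjusted p = 0.0314). No copy number was measured.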
